A study of Mus musculus with 21 samples.

Results

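The 10 genes described here belong to the mechanotransduction complex and the tip link of hair cells, and were followed through an RNA-Seq series of the mouse inner ear. They were *Tmc1*, *Tmc2*, *Lhfpl5*, *Tmie*, *Cib2*, *Cdh23*, *Pcdh15*, *Ush1c*, *Ush1g* and *Myo7a*, which were chosen by name and found by the Ensembl identifiers of the counts table, 10 of its 52550 genes. A hair cell (HC) opens ion channels at the tips of its stereocilia when a fine filament, the tip link, pulls on them. The upper part of the tip link is a dimer of cadherin 23 and the lower part a dimer of protocadherin 15. The pore is formed by TMC1 and TMC2 with LHFPL5, TMIE and CIB2 as partners, and harmonin, SANS and myosin VIIa hold the upper end of the link. The spiral ganglion neurons (SGNs) that carry the signal to the brain have no hair bundle.

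The series holds 21 libraries of C57BL/6 mice, 3 for each of 7 groups. SGNs were picked at 5 ages from the cochlea of ShhCre/+ mice, namely E15.5 and then P1, P8, P14 and finally P30. These mice also had 1 copy of Rosa26-CAG-loxp-stop-loxp-tdTomato, the Ai9 reporter, and mice in which Cre had leaked through the germ line were discarded. HCs at P12 came from Atoh1-CreER+ mice with the same reporter, given tamoxifen at P0 and P1, and from cochlear and vestibular organs together. Glia at P8 came from the cochlea of vGlut3-iCreER/+ mice with the reporter, given tamoxifen at P2 and P3. All 7 groups thus carried a Cre driver and the tdTomato reporter, and none was free of them. The vGlut3-iCreER line also labels inner hair cells, and the tissue around the SGNs alone was used for the glia. The HC group differed from every SGN group in driver, tamoxifen, organ, age at P12 and cell number (1200 per library against 69 to 195 SGNs), and these cannot be told apart from cell type. The labels describe the HCs as picked by hand and the paper's methods as sorted. No source states that the 3 libraries of a group came from separate animals, so p-values measure the spread between these libraries, which may be in part technical.

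Total counts were between 10368240 and 37287489 per library with a median of 20384100, so that a count of 3, taken here as the floor, was between 0.0805 and 0.289 CPM (counts scaled to the library total). Gene positions are those of GENCODE M21 on GRCm38. Levels are given as TPM, counts per gene length with an equal total for every library, with the SD over 3 libraries, and fold changes are on the log2 scale with their standard error (SE). The labelled cell types carried their own markers. The summed TPM of 8 SGN markers was between 753 and 7919 in the SGN libraries and at most 259 in the HC and 326 in the glial libraries, 8 glial markers summed to between 5823 and 8224 in the glial libraries and to at most 1034 elsewhere, and 12 hair cell markers summed to between 5848 and 7041 in the HC libraries. The hair cell markers were not at 0 elsewhere. Their sum was between 2.90 and 769 TPM in the SGN libraries and between 70.1 and 374 in the glial libraries, with *Atoh1*, the transcription factor of hair cell fate, at 0 in all 3 libraries at E15.5. The marker *Ocm* alone was between 0 and 506 TPM in the SGN libraries and between 19.4 and 275 in the glial libraries. The HC libraries also held 7 supporting cell markers at a summed 875 to 946 TPM, against at most 150 in any SGN library. In bulk libraries like these, fewer cells of a type and less RNA per cell cannot be told apart.

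All 10 genes were higher in each HC library than in each of the 15 SGN libraries and each of the 3 glial libraries. Over all genes tested, 33.0% lay in the same way above every SGN library and 57.0% above every glial library. In HCs the levels fell over a wide range. *Ush1c* was at 358 ± 35.3 TPM and *Cib2* at 342 ± 50.3, with overlapping ranges, and then came *Myo7a* at 233 ± 32.2, *Tmc1* at 215 ± 29.5 and *Lhfpl5* at 204 ± 34.3 (SD, n = 3). The range of *Tmc1* overlapped those of both *Myo7a* and *Lhfpl5*. Within each HC library *Lhfpl5* was below *Tmc1*, at a TPM ratio between 0.904 and 0.985, while *Myo7a* was above *Tmc1* in replicates 1 and 3 and below it in replicate 2. *Tmc2* stood apart at 118 ± 12.3 TPM, *Tmie* at 76.5 ± 10.1 and *Cdh23* at 71.2 ± 11.3 overlapped each other, and *Pcdh15* at 28.7 ± 2.78 and *Ush1g* at 17.2 ± 5.21 were the lowest. Any order between genes is that of TPM and rests on the deposited lengths, such as 23773 bases for *Pcdh15* and 1248 for *Lhfpl5*. In CPM, which is not divided by length, the HC mean of *Pcdh15* was 261, above *Cib2* at 187 and *Lhfpl5* at 97.0, and *Ush1g* was at 21.5. In glia *Cib2* was the highest of the 10 at 12.99 ± 10.5 TPM and *Ush1g* the lowest at 0.174 ± 0.108.

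**Figure D1:**
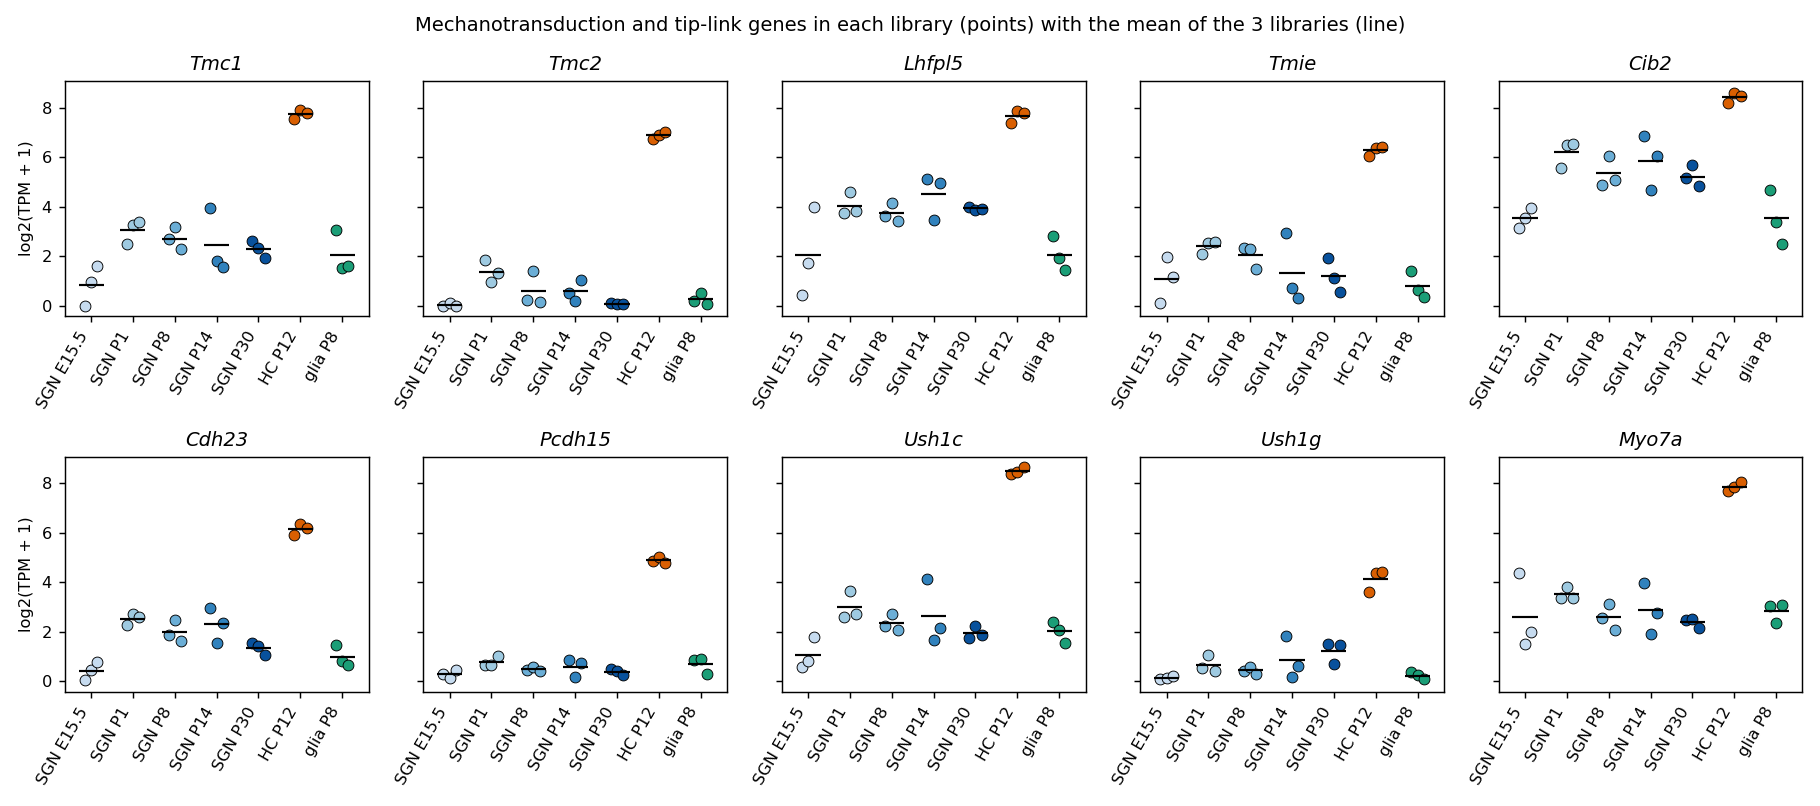
Level of each of the 10 genes in the 7 groups, as log2(TPM + 1), with a point for each of 3 libraries and a line at the mean of the log values. The HC points lie above all others in every panel, and *Cib2* has the highest SGN values of the 10 genes, up to 114 TPM.

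With limma-voom over all 21 libraries, and a call defined as a change over 4-fold with an adjusted p under 0.01, 9 of 10 genes were higher in HCs than in the mean of the 5 SGN ages. Of all 17531 genes tested 26.8% were called, 16.2% as higher in HCs, and the median log2 fold change was 4.14 over the 10 genes and -0.02 over all genes. *Tmc2* and *Ush1g* passed the filter on low counts through HCs and a single SGN age each, so a difference from HCs was built into their entry. The exception was *Cib2*, which was 3.87-fold higher in HCs (log2 fold change 1.95, SE 0.22, limma adjusted p = 1.5e-07) and missed the 4-fold limit alone. It was called when any of 8 single SGN libraries was left out, such as P14 replicate 1, and also with DESeq2 or with another scaling of the libraries. Against glia, all 10 genes were called as higher in HCs, where 24.4% of all genes were called and 16.2% as higher. With sample quality weights *Tmie* (adjusted p = 0.012) and *Ush1g* (adjusted p = 0.024) lost this call. Without glial replicate 1, the library with the highest *Tmc1*, *Tmie* and *Cib2* among the 3, the difference went from 4.33 to 5.10 for *Tmc1*, from 5.10 to 5.85 for *Tmie* and from 3.20 to 3.97 for *Cib2*. That of *Tmc2* went from 7.99 to 8.77 without replicate 2 and to 7.30 without replicate 3. Between the SGN mean and glia, limma called 0 of 10 genes against 24.7% of all genes, and edgeR and DESeq2 also called 0, while 2 had an unadjusted p under 0.05. These were *Cib2*, 1.25 higher in SGNs on the log2 scale (SE 0.48, limma adjusted p = 0.034), and *Pcdh15*, 1.07 lower (-1.07, SE 0.41, limma adjusted p = 0.035), and both fell short of 4-fold.

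Each age was then set against HCs. Against E15.5 all 10 genes were called as higher in HCs, beside 21.1% of all genes called and 11.9% called as higher. Against each later age it was 9 of 10. The share of all genes called, and called as higher, was 21.9% and 11.4% for P1, 23.2% and 12% for P8, 23.1% and 12.2% for P14, and 24.8% and 13.1% for P30. *Cib2* was each time the gene not called, at log2 differences of 1.38 for P1, 1.80 for P8, 1.34 for P14 and 1.66 for P30. These comparisons share the HC libraries, and their values are given side by side and not as separate support. The calls of *Lhfpl5* at P14 and *Ush1g* at P30 were near the limit. *Lhfpl5* was 2.01 above P14 (SE 0.42, limma adjusted p = 0.00053) and lost its call without HC replicate 2, HC replicate 3 or P14 replicate 2, and with edgeR (adjusted p = 0.037). With edgeR it also lost its call against P30 (adjusted p = 0.022), and *Ush1g* lost its call against P14 (adjusted p = 0.01). *Ush1g* was 2.11 above P30 (SE 0.60, limma adjusted p = 0.0064) and lost its call without HC replicate 2 or 3 or P30 replicate 1 or 2, at 1.498 and an adjusted p of 0.042 in the last case, and also with edgeR and DESeq2. *Tmie* lost its calls against E15.5, P1 and P8 with edgeR.

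Single libraries moved the size of other differences without ending a call. With 1 E15.5 library left out, the HC difference at E15.5 was between 5.82 and 9.28 for *Tmc1* (8.03 with all), between 9.99 and 11.87 for *Tmc2* (10.69 with all), between 3.67 and 6.13 for *Lhfpl5* (4.93 with all), between 3.84 and 6.74 for *Tmie* (5.29 with all) and between 5.63 and 7.49 for *Cdh23* (6.81 with all), and that of *Myo7a* was 5.18 without replicate 1 (4.37 with all). Without P14 replicate 1 the P14 difference was 5.13 for *Tmc1*, 6.07 for *Tmie*, 5.58 for *Ush1c* and 4.52 for *Ush1g*, against 4.35, 4.84, 4.84 and 3.60 with all libraries. Without P14 replicate 3 it was 3.72 for *Tmc1* and 3.75 for *Tmie*. The other differences that moved by over 1.5-fold were those of *Ush1g* at P1 (4.70 without replicate 2), *Tmc2* at P8 (8.13 without replicate 2) and *Tmie* at P30 (5.16 without replicate 1).

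**Figure D2:**
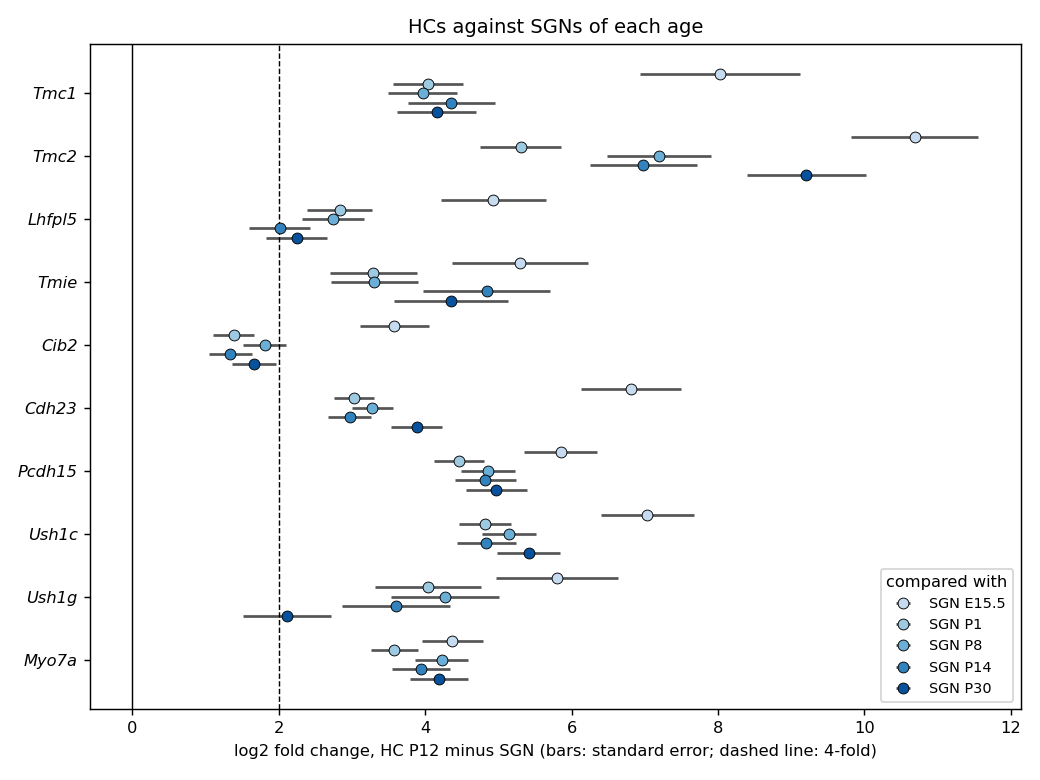
Log2 fold change of HCs at P12 over SGNs of each age for the 10 genes, with the standard error as bars and 4-fold as a dashed line. *Cib2* lies left of the line at P1 (1.38) to P30 (1.66) and right of it at E15.5 (3.58), and *Lhfpl5* and *Ush1g* lie just right of it at P14 (2.01) and P30 (2.11).

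The pore-forming pair was taken first. *Tmc1* (chr19:20783458-20954202, minus strand) encodes the channel subunit that mature hair cells keep, and its HC libraries held 183, 241 and 220.4 TPM. In SGNs *Tmc1* was at 0, 0.919 and 2.00 TPM at E15.5, 4.61, 8.45 and 9.51 at P1, 5.36, 7.95 and 3.82 at P8, 14.3, 2.48 and 1.97 at P14, and 5.05, 4.02 and 2.80 at P30, and in glia it was at 7.19, 1.86 and 2.01. The P14 value of replicate 1 was the highest outside HCs, every P1 library lay above every E15.5 library, and the later ages overlapped P1 or each other. Against the SGN mean the difference was 4.91 on the log2 scale (SE 0.35, limma adjusted p = 1.5e-10), and against glia 4.33 (SE 0.67, limma adjusted p = 2.8e-05).

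*Tmc2* (chr2:130195194-130264445, plus strand) encodes the early subunit, which cochlear hair cells lose after birth and vestibular hair cells keep, and both organs went into the HC libraries, at 105, 119 and 129.6 TPM. In SGNs it was at 0, 0.0821 and 0 TPM at E15.5, 2.54, 0.934 and 1.49 at P1, 0.179, 1.64 and 0.0979 at P8, 0.433, 0.133 and 1.05 at P14, and 0.0731, 0.0560 and 0.0443 at P30. The E15.5 values stand for 0, 6 and 0 counts and the P30 values for 6, 2 and 3, so P1 was clear of both, and 2 E15.5 libraries and 2 P30 libraries were at or under the floor. The difference from the SGN mean was 7.87 (SE 0.36, limma adjusted p = 2.3e-13), the widest of the 10, though with SGN libraries at 0 its size depends on the prior count. In HCs the TPM ratio of *Tmc1* to *Tmc2* was between 1.70 and 2.03. In SGN libraries it ran from 1.81 to 9.04 at P1, from 4.86 to 39.0 at P8 and from 1.88 to 33.2 at P14, where the *Tmc2* counts were low.

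The promoter windows of 3 partners are printed to show how unlike they were in base composition, with the GC box (GGGCGG or CCGCCC) and the E-box (CAGCTG) in capitals. They come from RefSeq on GRCm38.p6 and run 5′ to 3′ up to the annotated gene start. A window was matched for 8 of the 10 genes. The *Cib2* window is chr9:54560219-54560440 on the minus strand, with 71.2% GC and 4 GC boxes, of which the last pair overlap by 1 base. The *Lhfpl5* window is chr17:28575469-28575640 on the plus strand, with 68.6% GC and 1 E-box. The *Tmc1* window is chr19:20954203-20954452 on the minus strand, with 41.2% GC and no match to either motif or to TATAAA.
Cib2: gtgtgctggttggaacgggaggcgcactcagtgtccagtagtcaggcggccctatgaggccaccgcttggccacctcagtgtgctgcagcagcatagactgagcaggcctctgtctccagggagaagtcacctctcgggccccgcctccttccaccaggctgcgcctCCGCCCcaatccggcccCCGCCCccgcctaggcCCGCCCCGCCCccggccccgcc
Lhfpl5: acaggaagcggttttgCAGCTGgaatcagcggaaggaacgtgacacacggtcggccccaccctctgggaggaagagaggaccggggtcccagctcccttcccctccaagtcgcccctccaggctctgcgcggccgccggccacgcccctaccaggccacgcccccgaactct
Tmc1: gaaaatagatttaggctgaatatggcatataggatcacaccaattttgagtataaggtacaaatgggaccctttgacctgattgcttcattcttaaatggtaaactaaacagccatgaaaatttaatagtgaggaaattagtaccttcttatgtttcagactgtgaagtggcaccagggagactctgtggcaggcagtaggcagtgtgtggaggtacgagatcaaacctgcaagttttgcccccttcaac
Among 32851 promoter windows of 250 bases the median GC content was 52.4%, with lower and upper quartiles of 45.2 and 61.2. A GC box on either strand was in 32.7% of these windows and the E-box in 13.0%. Over the full 250 bases, the GC content was 74.8% for *Tmie*, 61.2% for *Ush1c*, 54.4% for *Cdh23* and 50.4% for *Pcdh15*, and 63.2% and 57.6% for 2 windows of *Myo7a*. A match of letters is a description of the window.

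*Lhfpl5* (chr17:28575641-28585679, plus strand) encodes a tetraspan partner that links protocadherin 15 to the channel. Its HC libraries held 165, 230.1 and 217 TPM. In SGNs it was at 0.332, 2.26 and 14.6 TPM at E15.5, 12.4, 22.7 and 12.97 at P1, 11.3, 16.7 and 9.65 at P8, 33.1, 9.99 and 30.3 at P14, and 14.98, 13.5 and 14.04 at P30, and in glia at 5.98, 2.81 and 1.70. Only E15.5 replicates 1 and 2 fell within the glial range or below it, all libraries from P1 on lay above the 3 glial libraries, and E15.5 replicate 3 overlapped the later ages. HCs were 2.95 above the SGN mean (SE 0.29, limma adjusted p = 3.2e-08), next to *Cib2* the narrowest of the gaps, and 4.29 above glia (SE 0.70, limma adjusted p = 5.3e-05). The difference of 1.34 between SGNs and glia missed the test (SE 0.70, limma adjusted p = 0.12).

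*Tmie* (chr9:110865711-110880113, minus strand) encodes a small membrane protein that the channel needs in order to gate. It was at 64.8, 81.8 and 82.9 TPM in HCs. In SGNs it was at 0.0669, 2.95 and 1.24 TPM at E15.5, between 1.79 and 4.89 at P1 and P8, at 6.63, 0.637 and 0.251 at P14, and at 2.76, 1.16 and 0.460 at P30. Replicate 1 was the high one at P14 and P30 and the low one at E15.5, and the P1 libraries were above all those of E15.5 and P30, with overlap between the other ages. The HC gap was 4.22 (SE 0.41, limma adjusted p = 2.6e-08). Exons of *Tmie* share 244 bases with *Als2cl* on the other strand, and the strand setting of the counting is not given in the sources used here, so its counts are uncertain by that part.

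*Cib2* (chr9:54544794-54560218, minus strand), a calcium and integrin binding protein that attaches to the TMC subunits and is also expressed outside the ear, was the member with the highest SGN level. Its HC libraries held 288, 387 and 352 TPM. In SGNs it was at 7.72, 10.5 and 14.2 TPM at E15.5, 46.4, 89.0 and 90.5 at P1, 28.5, 65.7 and 32.4 at P8, 114, 24.2 and 64.9 at P14, and 34.8, 49.5 and 27.2 at P30, and in glia at 24.8, 9.51 and 4.66. The 3 E15.5 libraries were below all 12 later SGN libraries, P14 replicate 1 reached 33.3% of the HC mean, and glia overlapped E15.5 and P14. Its exons share 227 bases with *Sh2d7* on the other strand, with the same limit as for *Tmie*.

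Of the tip link cadherins, *Cdh23* (upper part) was at 59.4, 81.8 and 72.6 TPM in HCs and 1.74, 0.776 and 0.589 in glia, and *Pcdh15* (lower part) at 27.7, 31.8 and 26.5 in HCs. *Cdh23* (chr10:60302748-60696490, minus strand) in SGNs was at 0.0366, 0.369 and 0.718 TPM at E15.5, 3.77, 5.54 and 4.98 at P1, 2.69, 4.51 and 2.05 at P8, 6.88, 1.94 and 4.15 at P14, and 1.95, 1.72 and 1.11 at P30. The E15.5 libraries were again below every later one, and each P30 library lay above all 3 at E15.5 while P30 was below P1, P8 and, except for its overlap with P14 replicate 2, P14. *Pcdh15* (chr10:73099342-74649737, plus strand) never passed 1.03 TPM in SGNs (P1 replicate 3) or 0.868 in glia, and its lowest SGN value was 0.0833. The HC gap over SGNs was 3.99 for *Cdh23* (SE 0.22, limma adjusted p = 2.6e-12) and 4.99 for *Pcdh15* (SE 0.21, limma adjusted p = 6.8e-14). The TPM ratio of *Cdh23* to *Pcdh15* was between 2.15 and 2.74 in HCs and between 4.81 and 13.8 in SGNs from P1 to P30, ranges that did not overlap. At E15.5 it was between 0.175 and 4.43, which spans the HC range, and in glia between 0.894 and 2.44. No test of this ratio was run.

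The genes of the upper anchor followed. *Ush1c* (chr7:46195350-46238503, minus strand), which encodes the scaffold harmonin, was at 330.0, 347 and 398 TPM in HCs and between 0.511 (E15.5 replicate 1) and 16.4 (P14 replicate 1) in SGNs, with a median of 3.495. Its glial libraries held 4.33, 3.24 and 1.93 TPM and overlapped the SGN range. The HC gap of 5.45 over SGNs (SE 0.23, limma adjusted p = 5.1e-14) was the widest after *Tmc2*. Its exons share 120 bases with *Gm9860* on the other strand.

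*Ush1g* (chr11:115315192-115322041, minus strand), which encodes the scaffold SANS, was at 11.2, 19.9 and 20.5 TPM in HCs. Its highest SGN values were 2.53 TPM in P14 replicate 1 and 1.87 and 1.72 in P30 replicates 1 and 3, and P30 replicate 2 held 0.599, below P1 replicate 2 at 1.08. At E15.5 its libraries held 0.0626, 0.107 and 0.159 TPM. Every P30 library was above every E15.5 library, and the E15.5 values stand for 2, 8 and 6 counts. *Myo7a* (chr7:98051060-98119524, minus strand), which encodes the motor myosin VIIa and is a common hair cell marker, was at 204, 227 and 268 TPM in HCs. In SGNs it was at 19.5, 1.82 and 2.92 TPM at E15.5, where replicate 1 was the highest of all 15 SGN libraries, between 9.27 and 13.03 at P1, and between 2.79 and 14.9 from P8 on. It was the single member whose highest SGN library was an E15.5 library. The HC gap was 3.96 for *Ush1g* (SE 0.43, limma adjusted p = 1.3e-07) and 4.06 for *Myo7a* (SE 0.21, limma adjusted p = 1.4e-12).

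The question of change with age was put to the 15 SGN libraries alone, where 15113 genes were tested and a call needed over 2-fold and an adjusted p under 0.05. From E15.5 to P1, 3 of 10 genes rose and none fell, beside 8.26% of all genes called and 5.08% called as higher. *Cdh23* rose by 3.73 (SE 0.73, limma adjusted p = 0.0045), *Cib2* by 2.19 (SE 0.45, limma adjusted p = 0.0064) and *Tmc2* by 5.41 (SE 1.30, limma adjusted p = 0.014). *Tmc2* passed the filter of this fit through P1 alone, the age where it was high, so a rise from E15.5 was built into its entry, and its call adds no support to the count. *Cdh23* and *Cib2* kept their calls in all alternative fits and without any single library. The size of the *Cdh23* change without E15.5 replicate 1 was 2.59 (limma adjusted p = 0.0063), and it was 4.38 without replicate 2 and 4.35 without replicate 3. *Tmc2* lost its call with quality weights and without E15.5 replicate 1 or 3, at 4.62 with an adjusted p of 0.074 without replicate 3, and was at 6.56 without replicate 2. All 10 values were above 0, with a median of 2.12 against 0.07 over all genes, and 8 of 10 genes had every P1 library above every E15.5 library, which 24.3% of all genes did. *Tmc2* was among these 8 and in the median, and its part in both was likewise built into its entry. Among the 7 that missed the test were *Tmc1* at 3.86 (SE 1.28, limma adjusted p = 0.061) and *Ush1c* at 2.20 (SE 0.78, limma adjusted p = 0.075), and the smallest value was 0.80 for *Myo7a* (SE 0.51, limma adjusted p = 0.32). *Myo7a* was called at 1.59 once E15.5 replicate 1 was left out, *Tmc1* without P14 replicate 1 or 3, and *Ush1c* without P14 replicate 1.

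The hair cell markers moved over the same interval. Of 11 markers tested, 3 rose (*Gfi1*, *Chrna9* and *Chrna10*), beside 5.08% of all genes called as higher, and the median was 3.29. All P1 libraries were above all E15.5 libraries for 10 of 11, beside 24.3% of all genes. *Lhx3*, among these 10, passed the filter of this fit through P1 alone, so a rise from E15.5 was built into its entry. Their summed level went from between 2.90 and 164 TPM at E15.5 to between 458 and 529 at P1. *Ocm* alone was at 0, 58.1 and 137 TPM at E15.5 and at 378, 355 and 398 at P1, so it weighed most in the P1 sums. In E15.5 replicate 1, 5 of the 12 markers were at 0 and 8 at or under the floor. This library also had the fewest cells, at 69, and the highest levels of the blood genes *Hbb-bs* (111 TPM) and *Hbb-bt* (41.2 TPM) among the 15 SGN libraries, where both had a median of 0. The part of the hair cell markers' RNA in the changes of the 10 genes was not tested, nor was that of blood RNA or cell number.

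**Figure D3:**
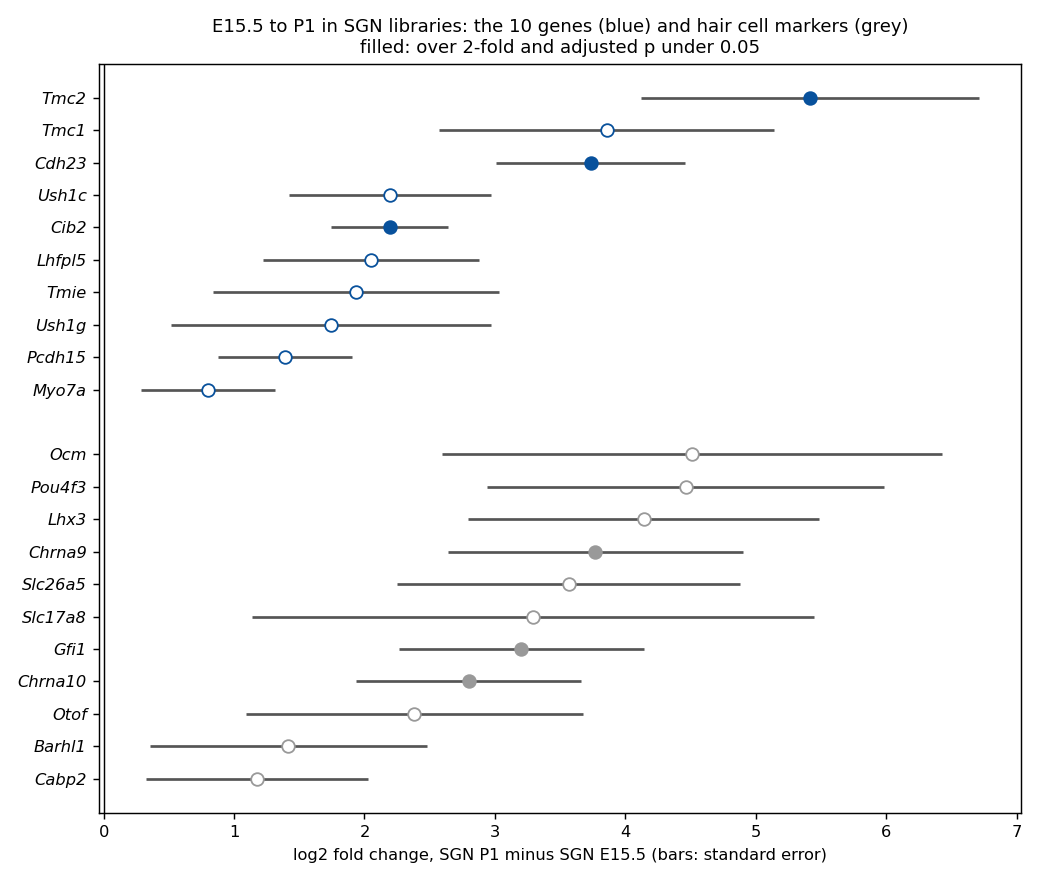
Log2 fold change from E15.5 to P1 in SGN libraries for the 10 genes (blue) and 11 hair cell markers (grey), with the standard error as bars and filled points for calls. All points lie right of 0, from 0.80 for *Myo7a* to 5.41 for *Tmc2* among the 10 genes.

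After P1 no step between neighbouring ages was called for any of the 10 genes. In each of the 3 steps limma called 0 of 10, edgeR also 0, and DESeq2 0 of those to which it gave an adjusted p. Over all genes 7.44% were called between P1 and P8, 0.536% between P8 and P14, and 0.0596% between P14 and P30. The number of the 10 with an unadjusted p under 0.05 was 1, 0 and 1. These were *Tmc2* from P1 to P8, at -1.89 (SE 0.82, limma adjusted p = 0.16), and *Cdh23* from P14 to P30, at -0.95 (SE 0.38, limma adjusted p = 0.63). Over the whole span from E15.5 to P30, 5 of 10 genes rose, beside 34.6% of all genes called and 18.4% called as higher. *Cib2* rose by 1.88 (SE 0.46, limma adjusted p = 0.0042) and *Cdh23* by 2.85 (SE 0.75, limma adjusted p = 0.0065), and both kept the call with any library left out, *Cdh23* at 1.69 (limma adjusted p = 0.017) without E15.5 replicate 1. *Tmc1* rose by 3.72 (SE 1.30, limma adjusted p = 0.031), *Lhfpl5* by 2.61 (SE 0.82, limma adjusted p = 0.017) and *Ush1g* by 3.66 (SE 1.13, limma adjusted p = 0.017). *Ush1g* passed the filter of this fit through P30 alone, its higher group here, so its call adds no support to the count. *Tmc1* lost the call in 5 alternatives, with adjusted p-values of 0.073 with edgeR, 0.051 with library size as the only scaling, 0.054 with no filter, 0.081 with quality weights and 0.051 with 3 libraries left out together (replicate 1 of E15.5, P14 and glia, chosen after seeing marker values). *Lhfpl5* lost it with edgeR (adjusted p = 0.082), quality weights (adjusted p = 0.051) and the 3 libraries left out together (adjusted p = 0.08), and *Ush1g* with quality weights (adjusted p = 0.11). Without E15.5 replicate 1 all 3 lost the call, *Tmc1* at 1.62 (limma adjusted p = 0.11) and *Lhfpl5* at 1.38 (limma adjusted p = 0.072). Without E15.5 replicate 3 *Tmc1* was at 4.88, *Lhfpl5* at 3.76 and *Cdh23* at 3.45, and without replicate 2 *Tmc1* was at 4.83 and *Cdh23* at 3.48. *Ush1g* also lost the call without E15.5 replicate 3 or P30 replicate 1, was at 4.28 without P30 replicate 2, and *Tmc1* lost it without P30 replicate 1. Of the 11 hair cell markers 2 rose over this span (*Pou4f3* and *Gfi1*), and their part in these changes was not tested. An F test over the 5 ages called *Cdh23*, *Cib2*, *Tmc2* and *Lhfpl5*, 4 of 10 genes beside 43.9% of all genes, with *Tmc2* again entered through P1 alone. *Lhfpl5* lost this call with edgeR (adjusted p = 0.28), DESeq2 (adjusted p = 0.17), library size as the only scaling (adjusted p = 0.064), the 3 libraries left out together (adjusted p = 0.17) and without E15.5 replicate 1 (adjusted p = 0.083). *Ush1g* gained it with edgeR (adjusted p = 0.032) and DESeq2 (adjusted p = 0.012).

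To set the genes on 1 scale, each SGN value was divided by that gene's HC mean and compared with the same share for the 12 hair cell markers in the same library. P14 replicate 1 had the highest share for 7 of the 10 genes. It was also the SGN library with the highest summed hair cell markers, at 769 TPM with *Ocm* alone at 506, and the highest median share of the markers, at 5.76%. The part of this marker RNA in its high values was not tested. The share of *Cib2* was between 2.26% and 33.3% with a median of 10.2%, and in 10 of 15 SGN libraries it was above the share of every one of the 12 markers. *Lhfpl5*, at between 0.162% and 16.2% with a median of 6.60%, was above every marker in 5 libraries. *Tmc1*, *Tmc2* and *Ush1c* were above every marker in 0 of 15 libraries, and *Tmc2* was not above the marker median in any. *Ush1g* was above every marker in 3, *Cdh23* and *Myo7a* in 2, and *Tmie* and *Pcdh15* in 1. In the 3 glial libraries none of the 10 genes was above every marker. The top marker in glial replicates 2 (4.29%) and 3 (12.7%) was *Slc17a8*, the vGlut3 gene whose driver labelled the glia. In replicate 3 *Myo7a* at 3.22% and *Cib2* at 1.36% lay above the next marker, at 1.24%. The glial result thus rests in part on the driver gene. The shares are a description without a test.

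**Figure D4:**
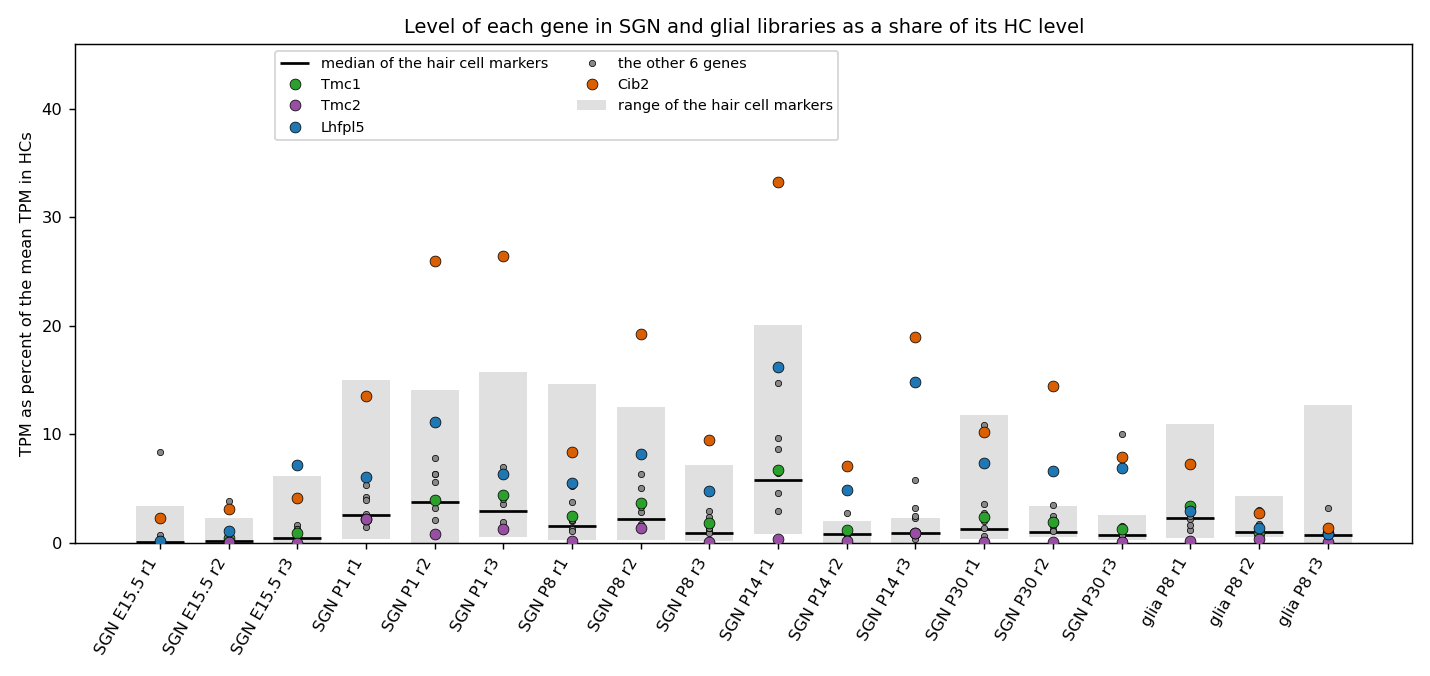
TPM of each of the 10 genes in each SGN and glial library as a percent of its mean in HCs, over a grey bar for the range and a black line for the median of 12 hair cell markers in the same library. *Cib2* (orange) lies above the grey bar in 10 of 15 SGN libraries, and *Tmc2* (purple) below the black line in all 15.

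Over the 15 SGN libraries, Pearson's r of log2(TPM + 1) with the mean of the hair cell markers was 0.964 for *Tmc1*, 0.956 for *Ush1c*, 0.911 for *Cdh23*, 0.894 for *Cib2* and 0.810 for *Lhfpl5*. It was 0.791 for *Tmie*, 0.740 for *Pcdh15*, 0.605 for *Ush1g*, 0.524 for *Tmc2* and 0.309 for *Myo7a*. The 45 pairs among the 10 genes had a median r of 0.580, with *Cib2* and *Cdh23* the closest at 0.958 and *Lhfpl5* and *Myo7a* the furthest at 0.00937. These points share libraries, depth and age, so the values are descriptive. Ratios between genes lay in different ranges. The TPM ratio of *Cib2* to *Tmc1* was between 1.57 and 1.60 in HCs, between 5.33 and 32.96 in SGNs and between 2.33 and 5.10 in glia, and these did not overlap. That of *Lhfpl5* to *Tmc1* was between 0.904 and 0.985 in HCs and between 1.36 and 15.4 in SGNs, and the glial range of 0.831 to 1.51 overlapped both. E15.5 replicate 1, where *Tmc1* was at 0, gave no ratio to *Tmc1* and was left out of both SGN ranges.

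The genes most like the 10 over all 21 libraries, by mean r among 9757 candidates, were *Ttc24* (0.952), *Loxhd1* (0.950), *Atp10d* (0.948), *Gfi1* (0.948) and *Clic5* (0.947), whose HC means were 111, 246, 68.0, 229.6 and 149 TPM. Over the 15 SGN libraries, among 11874 candidates, the closest to *Tmc1* was *Rbm24* (0.987), to *Ush1c* *Kat5* (0.968), to *Cib2* *Cd164l2* (0.964), to *Lhfpl5* *Ap2s1* (0.949) and to *Myo7a* *Sesn1* (0.917).

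Other genes of the hair bundle gave a background from the same structure. Of 29 listed genes, all tested, 25 were higher in HCs than in the SGN mean and none lower, with a median of 4.53, and 27 were higher than in glia. Of all genes 26.8% were called against SGNs and 24.4% against glia, with 16.2% called as higher in both. *Tomt*, called in both, passed the filter through HCs and P1 SGNs alone, so a difference from HCs was built into its entry. *Ptprq*, a phosphatase of the bundle's shaft connectors, was the highest in HCs at a mean of 2303 TPM and was also at 38.6 in SGNs. *Atp2b2*, the calcium pump of stereocilia and of many neurons, was the highest in SGNs at a mean of 89.9 TPM. Between SGNs and glia 2 of 29 were higher in SGNs, *Clrn1* (3.59, SE 0.58, limma adjusted p = 3.2e-05) and *Atp2b2* (3.15, SE 0.30, limma adjusted p = 3.4e-08). Of all genes 24.7% were called there in either direction. From E15.5 to P1, 4 of 29 rose (*Espn*, *Grxcr2*, *Pdzd7* and *Atp2b2*) and 1 fell (*Myo3b*), beside 8.26% of all genes called and 5.08% called as higher. From E15.5 to P30 6 rose and 3 fell, beside 34.6% of all genes called and 18.4% called as higher. Those that fell over the whole span were *Clrn1* (-1.42), *Grxcr1* (-1.72) and *Triobp* (-1.59), and among the 10 genes the lowest value was 0.16 for *Myo7a*.

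The paralogs and homologues of the 10 genes were placed differently. Of 18 listed, 7 failed the filter, and of the 11 tested 2 were higher and 4 lower in HCs than in the SGN mean, with a median of -0.39. Over all genes 26.8% were called, 16.2% as higher in HCs. Of the paralogs and homologues called, *Cib3* passed the filter through HCs alone and *Cdhr2* through P1 SGNs alone. Their calls, higher and lower in HCs, were thus built into their entry. In the *Lhfp* family, *Lhfpl5* was the member called as higher in HCs, and *Lhfpl3* and *Lhfpl4* had the highest means over the 5 SGN ages, at 51.2 and 52.8 TPM. *Lhfpl3* went from a mean of 1.41 TPM at E15.5 to 9.95 at P1 and 57.5 at P8, with 102 and 85.4 at the last pair of ages, against 0.590 in HCs and 0.906 in glia. From P1 to P8 *Lhfpl3* rose by 3.05 (SE 0.37, limma adjusted p = 7.3e-05). *Lhfpl2* ran the other way, from 44.6 TPM at E15.5 to 4.12 at P30, a change of -3.18 (SE 0.36, limma adjusted p = 4.6e-06). In the *Tmc* family *Tmc7* was highest in glia, at 23.2, 37.4 and 22.5 TPM in glia, above all other libraries, and 4.06 lower in SGNs (-4.06, SE 0.29, limma adjusted p = 3.5e-10). In the *Cib* family *Cib3* was at 597, 633 and 610.1 TPM in HCs and at most 2.18 in any SGN library, with all P8 libraries at 0, where *Cib2* was between 7.72 and 114.

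**Figure D5:**
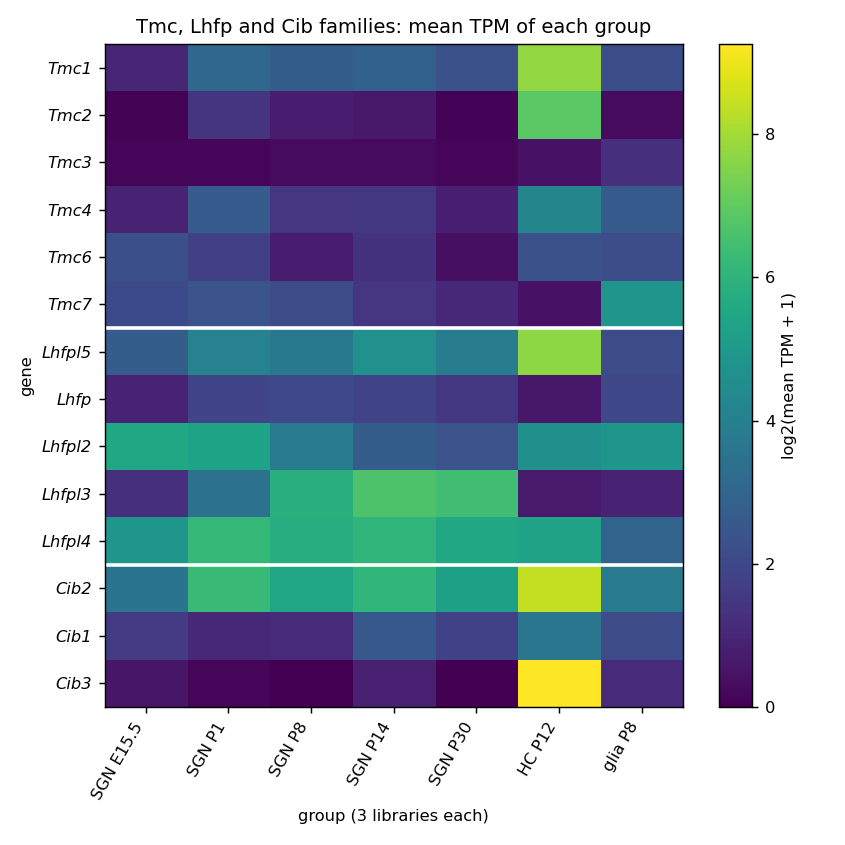
Mean TPM of the *Tmc*, *Lhfp* and *Cib* family genes in the 7 groups as log2(mean TPM + 1), colour from dark (low) to yellow (high), without *Tmc5*, *Tmc8*, *Lhfpl1* and *Cib4*, which failed the filter on low counts. *Tmc1*, *Tmc2*, *Lhfpl5*, *Cib2* and *Cib3* are brightest in the HC column, as are *Tmc4* and *Cib1* at lower levels. *Lhfpl3* is brightest in SGNs from P8 on (57.5 to 102 TPM) and *Tmc7* in glia.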

How the data were processed

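The authors converted and mapped the reads with CASAVA and STAR 2.4.0i to mm10, counted them on GENCODE vM15 genes with featureCounts, and deposited whole-number counts per gene with a length for each. The strand, multimapping and pair settings are not given in the sources used here. RNA was amplified with oligo-dT and random primers, and the SGN libraries had passed a qPCR purity check. Libraries were grouped by the labels. Symbols came from GENCODE M21, matched for 52403 of 52550 genes.

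TPM used the deposited lengths. Genes over 1 CPM in all replicates of at least 1 group were tested with limma 3.58.1 (voom, edgeR 4.0.16 TMM factors, 1 mean per group, two-sided, Benjamini-Hochberg), over 21 libraries for cell types (over 4-fold, adjusted p under 0.01) and 15 for ages (over 2-fold, 0.05). The procedure was tested on simulated data. The 10 genes were all named, the genes most like them were chosen by Pearson's r of log2(TPM + 1), and from each other list the 4 highest in HCs or SGNs and those called between ages could be named. Further values of list genes were chosen after they were seen. The genes, the lists and the alternatives added later were chosen with earlier results of these data known. Alternatives were edgeR's quasi-likelihood test, DESeq2 1.42.0, other scalings, no filter, other limits, quality weights, a replicate block and each library left out.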

Additional observations from a re-analysis of the deposited data

How the results depend on the processing

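Of 391 recomputed counts of called genes, 382 were within 1.5 times the value given. None of 3894 recomputed values for single genes turned its direction past the test, 42 lost a call and 42 gained one. From E15.5 to P1, DESeq2 called 6 genes (with *Pcdh15*, *Tmc1* and *Ush1c*), and leaving out 1 library gave between 2 and 5. From E15.5 to P30, 3 genes were called with edgeR and 3 with replicate 1 of E15.5, P14 and glia left out together, 2 were called with quality weights, and between 2 and 5 with 1 library left out. Between SGNs and glia, 1 gene (*Cib2*) was called without those 3 libraries, a setting chosen after seeing the data, and 2 (*Cib2* and *Pcdh15*) at limits of 2-fold and 0.05. Same-numbered replicates had every correlation of deviations over 0.1 for P8 with P30 (0.378, 0.172 and 0.146), which were not compared directly, and for no other pair, so the numbers were not taken as pairs. A replicate block changed 1 call, *Ush1g* between HCs and P30, leaving 8 of 9 genes there. With library size as the only scaling the median of all genes between HCs and SGNs moved to 0.54. The mitochondrial share of counts was between 9.54% and 10.6% in HCs and between 22.2% and 24.2% at P14, and 32 of 70 group levels moved by over 1 SD in TPM without mitochondrial genes (*Cib2* at P14 from 67.7 to 114). In CPM 52 of 70 differed by over 1 SD, but CPM is not divided by gene length, so this count includes the change of unit. *Tmie* had no adjusted p from DESeq2 in 8 comparisons. Counts at or under the floor limit *Tmc2* at E15.5 and P30 and *Ush1g* at E15.5. In glial replicate 3 *Tmc2* had 1 count and *Ush1g* 2. In E15.5 replicate 1 *Tmc1* had 0 counts and *Tmie* 2, so the size of their differences at E15.5 also depends on the prior count. The causes were not tested.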
